A study of Mus musculus with 8 samples.

Results

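Of 8 mouse hearts profiled on expression arrays, 3 had a value above 0.9 for Myh4, the gene of the fast skeletal myosin heavy chain IIb, and 5 did not. The 3 hearts above that value were male 1, male 2 and female 1, and the other 5 were male 3, male 4, female 2, female 3 and female 4. The hearts of each side were chosen by the Myh4 values of these same arrays, so it is a grouping by a measured value and not a treatment. Below, the first are called the high-Myh4 hearts and the others the low-Myh4 hearts. The label of the split, hearts with and without fast skeletal myosin, could not be checked as presence or absence, since the deposited values are relative and hold no absolute level.

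All 8 hearts came from Pcyt2+/- mice, heterozygous for the gene of the enzyme that turns phosphoethanolamine into CDP-ethanolamine on the way to the membrane lipid phosphatidylethanolamine. The 4 males and 4 females were 8 months old, and their hearts were snap frozen 3 to 4 hours after lights on. The tissue was labelled as myocardium, no wild-type heart was analysed here, and the labels call the samples of each sex biological replicates. The labels do not say how much of each heart, or which chambers, entered an extract. Biotin-labelled cRNA was made from 100 ng of total RNA per heart and hybridised to Affymetrix arrays.

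Striated muscle contracts when myosin heavy chains pull on actin filaments under the control of the troponin complex and tropomyosin, and most of these proteins exist in separate cardiac, slow skeletal and fast skeletal forms. Adult mouse ventricle is built mainly on the alpha cardiac heavy chain Myh6, whereas Myh4 is the heavy chain of the fastest, glycolytic fibres of limb and trunk muscle. Fast fibres also take up calcium through their own pump, Atp2a1, where the heart uses Atp2a2, and buffer it with parvalbumin, Pvalb.

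Each value is a log2 value relative to the median of its probe set over the 8 arrays, so 0 is that median and a difference of 1 is a doubling. Array medians lay between -0.002105 and 0.002304 and the arrays' SDs between 0.092 and 0.1289. Which end of the scale is higher expression was settled with Xist, whose values lay between 1.99 and 2.18 in females and between -3.02 and -1.99 in males, and from the Y-linked Uty, which was between 1.10 and 1.33 in males and between -1.32 and -1.10 in females. Every array thus fell with its labelled sex. The number of arrays limits the precision, and differences between the sides had a median standard error of 0.0523 on the log2 scale.

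Myh4 was read by 1 probe set. It stood at 2.23 in male 2, 1.57 in male 1 and 1.03 in female 1, and at 0.23 in female 2, -0.23 in female 4, -0.45 in male 4, -0.47 in female 3 and -0.69 in male 3. The heart just inside the limit, female 1, and the one just outside it, female 2, were thus 1.03 and 0.23. Both sexes were on both sides, with 2 males and 1 female above the limit and 2 males and 3 females below it. These values chose the sides and were not tested.

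Of the genes that carry the difference described below or lie beside Myh4, the promoters of Tnnt3, Tnni2 and Actn3 were not available. The promoters printed here are those of Myh4, of its neighbour Myh1 and of 2 calcium-handling genes of the fast fibre, Atp2a1 and Tnnc2. They are the 250 bases before the start of the gene in RefSeq, build GRCm38.p6, at chr11:67237562-67237811 (plus strand) for Myh4, chr11:67199852-67200101 (plus strand) for Myh1, chr7:126463074-126463323 (minus strand) for Atp2a1 and chr2:164779735-164779984 (minus strand) for Tnnc2. Each is written 5′ to 3′ on the strand of its gene. Capitals mark matches to the E-box CANNTG and to the MEF2 motif, both searched on both strands, and to TATAAA on the strand of the gene.
Myh4 promoter: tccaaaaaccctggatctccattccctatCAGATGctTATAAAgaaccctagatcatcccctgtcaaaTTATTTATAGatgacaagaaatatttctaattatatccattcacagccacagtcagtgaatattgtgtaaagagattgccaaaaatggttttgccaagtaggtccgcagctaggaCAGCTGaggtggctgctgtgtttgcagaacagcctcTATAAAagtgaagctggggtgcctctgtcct
Myh1 promoter: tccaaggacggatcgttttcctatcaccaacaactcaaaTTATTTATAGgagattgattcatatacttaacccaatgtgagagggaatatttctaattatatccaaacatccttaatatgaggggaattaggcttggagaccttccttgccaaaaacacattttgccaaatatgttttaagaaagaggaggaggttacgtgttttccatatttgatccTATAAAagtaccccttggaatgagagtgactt
Atp2a1 promoter: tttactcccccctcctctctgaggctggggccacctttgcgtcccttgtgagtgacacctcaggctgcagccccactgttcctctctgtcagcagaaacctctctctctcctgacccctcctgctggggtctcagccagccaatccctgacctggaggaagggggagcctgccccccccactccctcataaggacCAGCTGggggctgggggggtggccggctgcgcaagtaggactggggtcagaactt
Tnnc2 promoter: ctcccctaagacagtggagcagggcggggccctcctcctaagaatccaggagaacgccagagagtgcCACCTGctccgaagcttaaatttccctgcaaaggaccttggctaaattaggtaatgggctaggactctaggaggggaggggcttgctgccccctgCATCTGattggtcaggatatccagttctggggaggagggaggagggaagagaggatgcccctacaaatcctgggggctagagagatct

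The Myh4 promoter held 2 E-boxes, 1 MEF2 match and 2 TATAAA matches, the nearer of which began 31 bases before the start. In the Myh1 promoter there were 1 MEF2 match, 1 TATAAA match beginning 32 bases before the start and 0 E-boxes. The longest stretch shared by these promoters was 20 bases, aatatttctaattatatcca. Atp2a1 had 1 E-box, of the form CAGCTG, and Tnnc2 had 2 E-boxes. Of 32536 promoters of the same table, searched over the same length, 66.2% held CANNTG, 13.1% held CAGCTG (a subset of CANNTG), 2.89% held the MEF2 motif and 7.55% held TATAAA. A match describes the letters and is not a measured binding site.

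Among genes higher in the high-Myh4 hearts, the largest differences belonged to genes of the fast skeletal thin filament and of fast-fibre calcium handling. The 4 largest differences above 0 were those of Atp2a1, Tnnt3, Tnnc2 and Tnni2, at 1.29, 0.92, 0.79 and 0.64 on the log2 scale. Below 0, Bmp10 (-1.99) and Hamp (-1.33) were larger in size and are described further on. Each of the 4 higher genes had all 3 high-Myh4 hearts above all 5 low-Myh4 hearts. None of the 21203 autosomal genes tested passed an adjusted p of 0.05 (limma with sex as a term and Benjamini-Hochberg adjustment), so the differences below are values and not calls. The smallest adjusted p was 0.1125, for the predicted gene Gm11565, which was named after its values were seen. With the Myh4 value as a number in place of the split, 4 genes did pass, all higher with Myh4: Tnnt3 (adjusted p 0.00421), Atp2a1 (0.0043), Tnnc2 (0.0142) and Pvalb (0.0381). That fit uses the same Myh4 values that chose the sides.

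**Figure D1:**
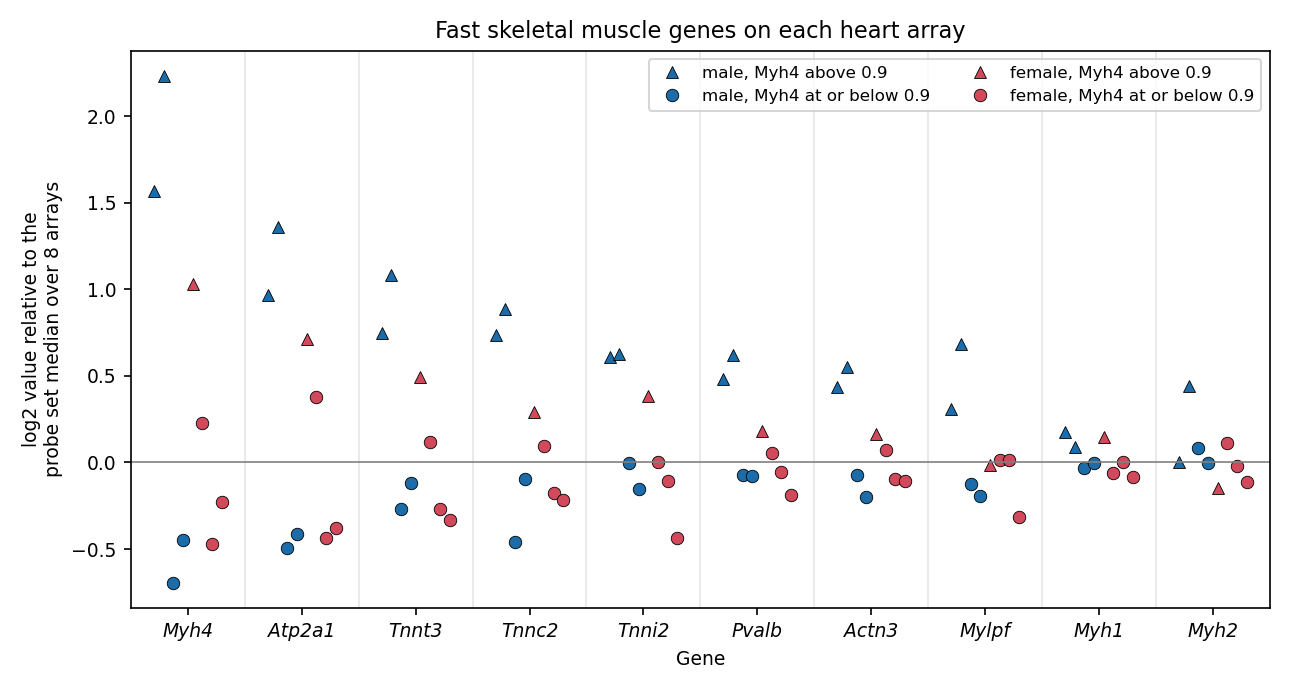
Log2 value relative to the median of the 8 arrays (vertical axis) for Myh4 and 9 other fast skeletal muscle genes (panels), with 1 point per heart. Blue marks males, red females, triangles hearts with Myh4 above 0.9 and circles the others. Triangles lie above all circles for Atp2a1, Tnnt3, Tnnc2, Tnni2, Pvalb, Actn3 and Myh1, but not for Mylpf and Myh2.

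Atp2a1 encodes SERCA1, the pump that returns calcium to the sarcoplasmic reticulum of fast fibres. It stood at 0.97 in male 1, 1.36 in male 2 and 0.71 in female 1, against -0.49 in male 3, -0.42 in male 4, 0.38 in female 2, -0.44 in female 3 and -0.38 in female 4. The order of the 3 highest hearts was that of Myh4, and female 2 was again the highest of the other 5. The difference between the sides was 1.29 ± 0.23 (SE), a 2.45-fold difference with a 95% confidence interval from 0.76 to 1.82 on the log2 scale, and its unadjusted p in limma was 4.63e-04 (adjusted p 0.589).

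The 3 subunits of fast troponin, the switch by which calcium starts contraction, followed. Tnnt3, the fast tropomyosin-binding subunit, was at 0.75 in male 1, 1.08 in male 2 and 0.49 in female 1, against -0.27, -0.12, 0.12, -0.27 and -0.33 in male 3, male 4 and females 2, 3 and 4. The sides did not overlap, and the difference was 0.92 ± 0.14 (SE; limma, unadjusted p 1.79e-04, adjusted p 0.589). Tnni2, the fast inhibitory subunit, was at 0.61 in male 1, 0.63 in male 2 and 0.38 in female 1, with the low-Myh4 hearts between -0.44 in female 4 and 0.002 in female 2. Its difference was 0.64 ± 0.10 (SE; limma, unadjusted p 1.67e-04, adjusted p 0.589), also without overlap. Tnnc2, the fast calcium-binding subunit, read 0.74 in male 1, 0.89 in male 2 and 0.29 in female 1. In the low-Myh4 hearts it lay between -0.46 in male 3 and 0.09 in female 2, again apart from the others, with a difference of 0.79 ± 0.16 (SE) and an adjusted p of 0.63 in limma.

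Pvalb, the calcium buffer of fast fibres, was at 0.48, 0.62 and 0.18 in male 1, male 2 and female 1 and between -0.19 and 0.05 in the low-Myh4 hearts. Actn3, the alpha-actinin of the fast-fibre Z-disc, was at 0.44, 0.55 and 0.17, with the low-Myh4 hearts between -0.20 and 0.07. For both genes the 2 males were highest, and female 1 was above female 2 by less than it was below them. The differences between the sides were 0.46 ± 0.09 for Pvalb and 0.45 ± 0.09 for Actn3 (SE). Mylpf, the fast regulatory light chain, was at 0.31 in male 1 and 0.68 in male 2, but at -0.01 in female 1, below female 2 and female 3, which were both at 0.01. Its difference of 0.41 ± 0.14 (SE) thus came with overlapping sides.

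Among the genes for fast heavy chains besides Myh4, Myh1 (heavy chain IIx) was at 0.17, 0.09 and 0.15 in male 1, male 2 and female 1 and between -0.08 and 0.003 in the low-Myh4 hearts. Its difference was small, 0.17 ± 0.04 (SE), and the sides did not overlap. Myh2 (heavy chain IIa) had values of 0.001, 0.44 and -0.15 in the same 3 hearts and from -0.11 to 0.11 in the others, so that male 2 alone was high. The myosin genes lie on chromosome 11 in the order Myh3, Myh2, Myh1, Myh4, Myh8 and Myh13, and the differences of the embryonic Myh3, the perinatal Myh8 and the extraocular Myh13 were -0.01, -0.01 and 0.07. Heavy chain genes are similar in sequence, and a share of signal between their probe sets was not tested.

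Tnni2 and Tnnt3 are near neighbours on chromosome 7, with Lsp1 and Prr33 between them in the RefSeq table. Lsp1, a leukocyte actin-binding protein, had a difference of -0.21 ± 0.09 (SE), with all 3 high-Myh4 hearts below the other 5, and Prr33 one of 0.06 ± 0.07 (SE). The genes between the troponins thus differed from them in direction or size.

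Of the 12 fast skeletal markers besides Myh4 (Atp2a1, Myh1, Myh2, Actn3, Mylpf, Tnnt3, Tnni2, Tnnc2, Pvalb, Casq1, Ryr1 and Cacna1s), 11 had a difference above 0, against 47.2% of all autosomal genes. In 8 of the 12 the 3 high-Myh4 hearts lay above the other 5 without overlap, which was so for 1.86% of all autosomal genes, and 9 had an unadjusted p under 0.05 and a higher value (limma), against 2.83%. Their median difference was 0.43, and that of all autosomal genes was -0.0037. The markers were picked because they belong to the same fibre type as the gene that set the split, and no test of the list was made.

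The mean of the 12 markers was 0.38 in male 1, 0.55 in male 2 and 0.19 in female 1, and -0.15, -0.11, 0.08, -0.10 and -0.21 in male 3, male 4 and females 2, 3 and 4. Male 2 had the highest value of all hearts for 9 of the 12, and the 3 highest hearts were the high-Myh4 hearts for 8. Female 1 was the highest female for 8 markers, and female 2 the highest of the low-Myh4 hearts for 8. The hearts thus formed a graded order, with female 2 between the others on its side and female 1. In RNA from whole tissue, fewer cells of a type and less RNA per cell cannot be told apart.

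The remaining markers were less even. Casq1, the fast-fibre calsequestrin, had a difference of 0.22 ± 0.14 (SE), and female 2 at 0.20 was above all 3 high-Myh4 hearts. Ryr1, the calcium release channel of skeletal muscle, was at 0.12, 0.14 and 0.02 in male 1, male 2 and female 1, and from -0.04 to 0.01 in the others. Cacna1s, the voltage sensor coupled to it, differed by -0.05 ± 0.05 (SE), with female 4 the highest at 0.12. Within the marker set, the pump, the buffer and the troponins had large differences, and the membrane voltage sensor did not.

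Over the wider lists, 13 of 15 measured fast sarcomere genes had a difference above 0 (47.2% of all autosomal genes), with a median of 0.17. In 7 of the 15 the value was higher at an unadjusted p under 0.05 in limma (2.83% of all), and in 6 the sides did not overlap (1.86% of all). Beyond those already given, Mylk2, the skeletal myosin light chain kinase, differed by 0.13 ± 0.05 (SE), Mybpc2, the fast myosin-binding protein C, by 0.26 ± 0.12 and Myoz1, a Z-disc protein, by 0.10 ± 0.04. Myoz3, another Z-disc protein, differed by 0.09 ± 0.07 and Myl1, the fast essential light chain, by 0.04 ± 0.07. Tpm2, beta-tropomyosin, and Smtnl1 were on the other side of 0, at -0.13 ± 0.14 and -0.01 ± 0.05. None of these 7 passed the threshold.

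Acta1, the skeletal alpha-actin that fetal and stressed hearts also make, did not follow the split. It was at 1.12 in male 1, 0.32 in male 2, 0.53 in male 3 and 0.43 in male 4, and at -0.32, -0.82, -0.47 and -0.58 in females 1 to 4. All males were above all females, whichever side they were on. Between the sides it differed by 0.27 ± 0.17 (SE), and between females and males by -1.15 without the side in the fit and by -1.08 with it. For Atp2a1 the same female minus male value was -0.29 without the side and 0.04 with it, and for Myh7 it was -0.18 and -0.06.

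Of 14 measured genes of skeletal excitation and calcium handling, 8 were above 0 and 6 below, with a median of 0.03, 4 higher and 1 lower at an unadjusted p under 0.05 (limma), against 2.83% and 3.89% of all autosomal genes. Sypl2, a protein of the triad junction, differed by 0.12 ± 0.04 (SE), and Jsrp1, a junctional protein of the sarcoplasmic reticulum, by 0.10 ± 0.06. The calcium channel subunits Cacng1 and Cacnb1 differed by 0.02 ± 0.08 and 0.04 ± 0.06, and Jph1, Stac3 and Mrln by -0.13 ± 0.07, -0.08 ± 0.06 and -0.04 ± 0.05. Clcn1, the chloride channel of skeletal muscle, was the 1 lower gene, at -0.05, -0.07 and -0.16 in male 1, male 2 and female 1 and from -0.03 to 0.25 in the others, a difference of -0.16 ± 0.07 without overlap. Sln, a regulator of the calcium pump that mouse heart makes in the atria, had a difference of -0.28 ± 0.43.

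**Figure D2:**
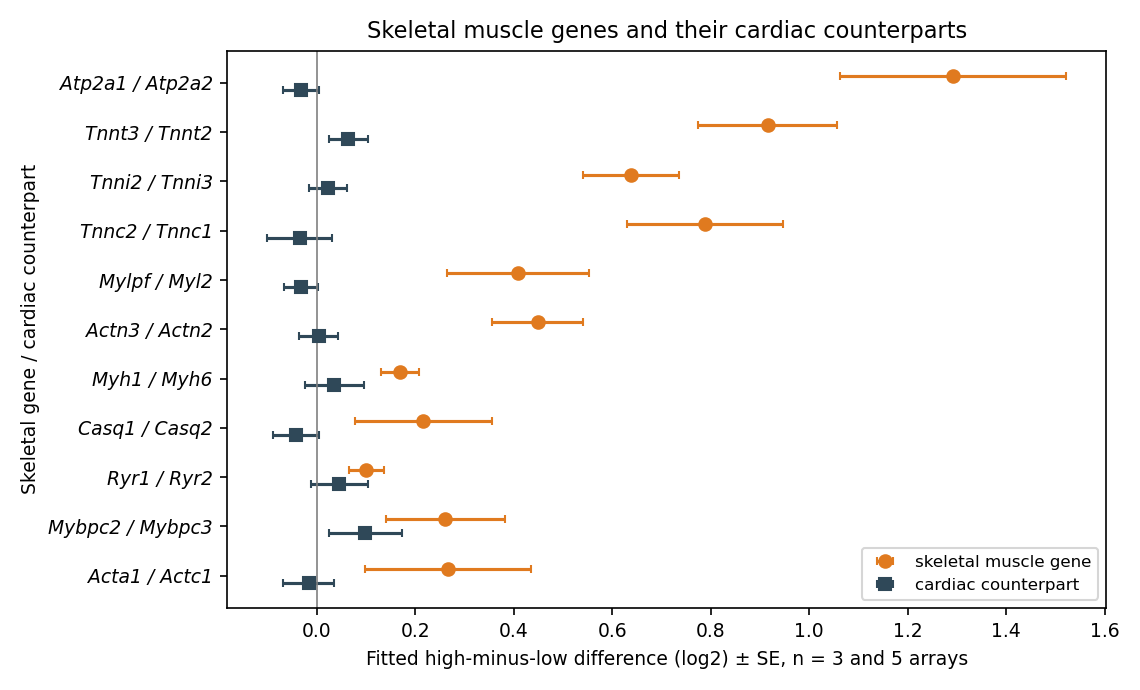
Difference between high-Myh4 and low-Myh4 hearts on the log2 scale, with its standard error, for 11 skeletal muscle genes (orange circles) and the cardiac gene of the same kind (dark squares). The cardiac genes lie between -0.04 and 0.10. The skeletal genes shown were picked, are all above 0 and reach 1.29 for Atp2a1.

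The cardiac forms of proteins in 11 picked pairs stayed close to 0. Every skeletal gene in these pairs was above 0. Skeletal genes below 0, such as Tpm2 (-0.13) and Cacna1s (-0.05), were not paired. Myh7 (0.47), a heavy chain that the heart also makes, was not among the cardiac forms. For 11 pairs of a skeletal gene and its cardiac counterpart, the cardiac differences lay between -0.0419 and 0.098, 6 above 0 and 5 below, and 0 had an unadjusted p under 0.05 (limma), against 6.73% of all autosomal genes in either direction. Atp2a2, the cardiac calcium pump, differed by -0.03 ± 0.04 (SE) where Atp2a1 differed by 1.29. The troponins Tnnt2, Tnni3 and Tnnc1 differed by 0.06 ± 0.04, 0.02 ± 0.04 and -0.04 ± 0.07, and the heavy chain Myh6 by 0.04 ± 0.06. Of 16 ventricular and general cardiac genes 8 were above 0 and 8 below, and the cardiac transcription factors Nkx2-5 and Tbx20 had differences of -0.22 ± 0.08 and -0.17 ± 0.07.

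Myh7, the heavy chain of slow fibres and of the fetal ventricle, stood at 0.31 in male 1, 0.34 in male 2 and 0.15 in female 1, against -0.29, -0.15, -0.51, 0.28 and -0.40 in male 3, male 4 and females 2, 3 and 4. Female 3 overlapped the high-Myh4 hearts. The difference was 0.47 ± 0.17 (SE; adjusted p 0.722 in limma). The slow skeletal troponins Tnnt1 and Tnni1 differed by -0.06 ± 0.09 and -0.05 ± 0.07, so they did not go with Myh7, and of all 8 slow muscle genes 3 were above 0. Mybpc1, the slow skeletal myosin-binding protein C, did separate the sides, with 0.19, 0.30 and 0.15 in male 1, male 2 and female 1, values from -0.07 to 0.02 in the others and a difference of 0.24 ± 0.04.

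Genes of fast-fibre energy metabolism had small differences on both sides of 0. Of 15 measured, 4 were above 0 and 11 below, with a median of -0.03. Ampd1, the AMP deaminase of skeletal muscle, differed by 0.15 ± 0.05 (SE) and Fbp2, the muscle fructose bisphosphatase, by -0.18 ± 0.08. The glycogen phosphorylase Pygm, the creatine kinase Ckm and the enolase Eno3, which heart makes too, differed by 0.01 ± 0.04, 0.02 ± 0.05 and 0.08 ± 0.05. None of these differences passed the threshold.

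The lists of the nerve-muscle synapse and of muscle stem cells had medians near 0, both at 0.02. Of 10 neuromuscular junction genes 6 were above 0. The acetylcholine receptor subunit Chrnb1 and the agrin receptor Lrp4 had the smallest p, with differences of -0.09 ± 0.04 and -0.18 ± 0.06 (SE). These 2 of the 10 were lower at an unadjusted p under 0.05 (limma, 3.89% of all autosomal genes) and lower without overlap (1.89% of all). Of 15 myogenic factors and satellite cell genes 9 were above 0, 0 had an unadjusted p under 0.05 (limma), and Myog and Eya4 differed by 0.09 ± 0.04 and -0.08 ± 0.05. Of 5 myosins listed as embryonic and special, 3 were above 0. The highest was Myh14, a non-muscle heavy chain, at 0.08 ± 0.07.

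**Figure D3:**
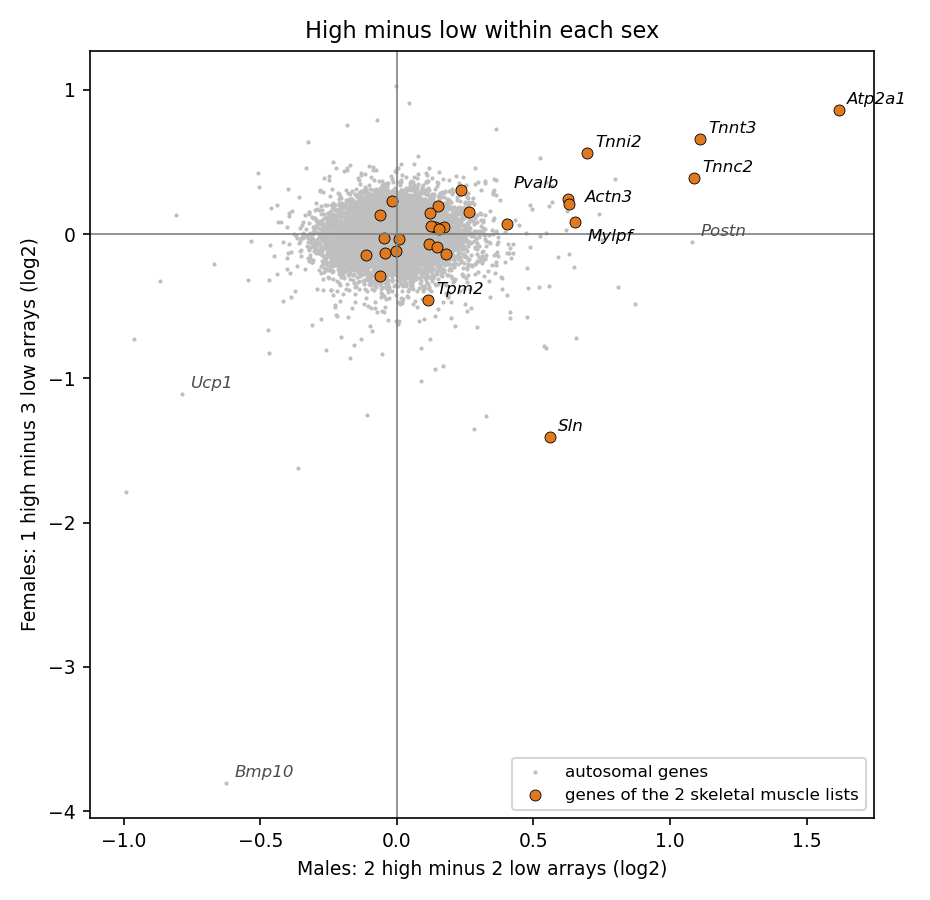
High minus low Myh4 difference on the log2 scale in males (2 hearts minus 2, horizontal axis) against females (1 heart minus 3, vertical axis), with 1 point per autosomal gene. Grey points are all genes and orange points the genes of both skeletal lists. Atp2a1 lies at 1.62 in males and 0.86 in females.

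Males and females share no array, so the difference can be read in each sex by itself. In males Atp2a1 differed by 1.62, Tnnt3 by 1.11, Tnnc2 by 1.09, Tnni2 by 0.70, Mylpf by 0.65, Actn3 by 0.63 and Pvalb by 0.62. In females, where 1 heart stood against 3, the same genes differed by 0.86, 0.66, 0.39, 0.56, 0.08, 0.21 and 0.24. All 7 were larger in males, the sex whose high-Myh4 hearts had the higher Myh4, and a link between the 2 was not tested. Myh1 went the other way, at 0.15 in males and 0.19 in females. Of the 12 markers, 10 were above 0 in both sexes, against 23.3% of all autosomal genes.

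Whether the difference between the sides itself depended on sex was tested as an interaction. No gene passed an adjusted p of 0.05, the smallest adjusted p was 0.69, and 1285 genes (6.06%) had an unadjusted p under 0.05 (limma). The genes with the smallest p were Efnb3, Nt5e and Prss12. Efnb3, a membrane ephrin, had a difference of -0.50 in males and 0.33 in females. For Nt5e, the ectonucleotidase CD73, it was 0.36 in males and -0.27 in females, and for Prss12, a secreted protease, 0.23 and -0.39.

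Over all autosomal genes, 1426 (6.73%) had an unadjusted p under 0.05 (limma), 601 of them higher and 825 lower in the high-Myh4 hearts. Without overlap, 394 genes (1.86%) were higher and 401 (1.89%) lower. A difference of at least 0.4 was found for 21 genes (0.099%), of which 7 belonged to the skeletal lists (Atp2a1, Tnnt3, Tnnc2, Tnni2, Pvalb, Actn3 and Mylpf). The largest of the others were Plaat1 (0.62), Postn (0.59), Iglv1 (0.53), Snord104 (0.52) and Psca (0.48). Plaat1 was higher without overlap, and Psca overlapped. A difference of -0.4 or below was found for 22 genes (0.104%), of which 0 belonged to the skeletal lists. The lowest were Bmp10 (-1.99), Hamp (-1.33), Ucp1 (-0.93), Scd1 (-0.90) and Retnla (-0.86). Hamp, the gene of the iron hormone hepcidin, was at -2.40, 0.45 and -1.42 in male 1, male 2 and female 1 and from -0.81 to 0.96 in the others, with overlap and an SE of 0.69. Retnla, a resistin-like secreted protein, was at -1.47, -0.20 and -0.51 in the same 3 hearts and from -0.07 to 0.38 in the others, without overlap and with an SE of 0.26. The p-values set each difference against the spread left among these 8 hearts after sex and side, moderated over genes. As the sides were drawn from one of the hearts' own measurements, the p-values only describe these hearts.

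Besides the muscle genes, and with predicted genes skipped, the smallest p among higher genes belonged to Ifit1 (0.19), an interferon-induced gene, Top2a (0.32), the topoisomerase of dividing cells, Mybl1 (0.34), a transcription factor, Tlr4 (0.33), the receptor for bacterial lipopolysaccharide, Traip (0.26), a ubiquitin ligase of DNA replication, and Zmpste24 (0.27), the lamin A protease. Top2a was at 0.17, 0.19 and 0.21 in male 1, male 2 and female 1 and between -0.19 and 0.03 in the others. Ifit1 was at -0.05, -0.05 and 0.26, with males 3 and 4 at -0.23 and -0.23 and females 2 to 4 from 0.05 to 0.06, so its sides overlapped across the sexes. Gm11565 was at 0.26, 0.26 and 0.35, with the low-Myh4 hearts from -0.21 to 0.02 and a difference of 0.42 ± 0.04 (SE).

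Among lower genes the smallest p belonged to Pcp4, a calmodulin regulator, at -0.34 in male 1, -0.33 in male 2 and -0.14 in female 1 and from -0.02 to 0.15 in the others. Its difference was -0.30 ± 0.04 (SE; limma, adjusted p 0.489). Then came Cyp2d22 (-0.29), a cytochrome P450, Tmem98 (-0.23), Trem3 (-0.22), a myeloid receptor, Rbfa (-0.27), a mitochondrial ribosome factor, Gprc5c (-0.24), Prcc (-0.26), Stxbp6 (-0.24), Prpf40b (-0.25), a splicing factor, and Tmem220 (-0.21). None of these 10 is a muscle sarcomere gene.

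**Figure D4:**
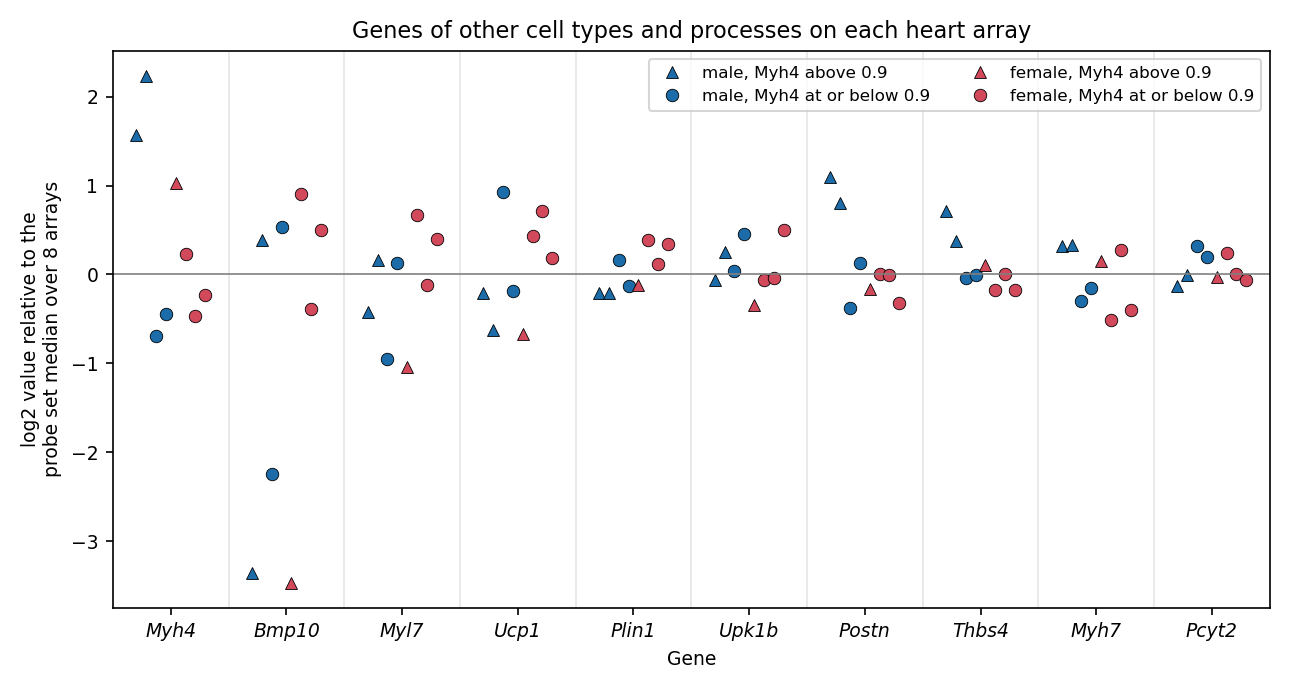
Log2 value relative to the median of the 8 arrays for Myh4 and for genes of atrial muscle (Bmp10, Myl7), brown and white fat (Ucp1, Plin1), mesothelium (Upk1b), matrix and tendon (Postn, Thbs4), slow or fetal muscle (Myh7) and for Pcyt2, with 1 point per heart. Colours and symbols mark sex (blue male, red female) and Myh4 above 0.9 (triangles) or not (circles). Bmp10 is lowest in female 1, male 1 and male 3, which lie on both sides.

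Markers of other tissues that a heart sample can hold were read on the same arrays. Fits with the atrial or the white adipocyte mean as a further term are given below as a description. Whether these tissues had a part in the differences above was not tested. All 10 atrial genes were below 0 in the high-Myh4 hearts (52.8% of all autosomal genes), with a median of -0.21, and 0 of them had an unadjusted p under 0.05 (limma). The mean of the list was -0.51 in male 1, 0.16 in male 2 and -0.82 in female 1, and -0.68, 0.13, 0.37, -0.10 and 0.29 in male 3, male 4 and females 2, 3 and 4. Bmp10, a growth factor of the atria, was at -3.35, 0.39 and -3.46 in the high-Myh4 hearts and at -2.25, 0.53, 0.91, -0.39 and 0.50 in the others. The hearts low in atrial genes were male 1, male 3 and female 1, and the sides overlapped. The median of the list was 0.09 in males and -0.66 in females, so it was above 0 without female 1. In a fit with the atrial mean as a further term, Atp2a1 differed by 1.51 and Tnnt3 by 1.06 (limma, adjusted p 0.443 and 0.2015). There, 9 of the 12 fast markers were higher at an unadjusted p under 0.05, and 1375 of all 21203 genes had such a p in either direction.

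Fat cell genes had mostly lower values in the high-Myh4 hearts. Of 12 white adipocyte genes 11 were below 0 (52.8% of all autosomal genes), with a median of -0.11, and 6 were below 0 in both sexes (27.5% of all). The list mean lay between -0.19 and -0.08 in the high-Myh4 hearts. It was 0.04, -0.15, 0.20, 0.09 and 0.45 in male 3, male 4 and females 2, 3 and 4. The sides thus overlapped, with male 4 below male 2 and female 1. Plin1, the coat protein of fat droplets, differed by -0.30 ± 0.09 (SE) and Pck1, an enzyme of glycerol synthesis in fat, by -0.34 ± 0.12. Of 10 brown adipocyte genes 7 were below 0, with a median of -0.04, which was 0.02 without female 1. Ucp1, the uncoupling protein of brown fat, was at -0.21, -0.62 and -0.67 in male 1, male 2 and female 1, and at 0.93, -0.18, 0.43, 0.71 and 0.18 in the others. Its sides did not overlap, and its difference was -0.93 ± 0.25 (adjusted p 0.644 in limma). Cidea, a lipid droplet protein of brown fat, was at -0.05, -0.33 and -0.29 against values from -0.01 to 0.06, a difference of -0.27 ± 0.07. In a fit with the white adipocyte mean as a term Atp2a1 differed by 1.40 (limma, adjusted p 0.854). There, 9 of the 12 markers were higher at an unadjusted p under 0.05, and 1193 of all 21203 genes had such a p in either direction.

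Of 13 tendon, cartilage and bone genes 9 were above 0, against 47.2% of all autosomal genes, with a median of 0.04. Thbs4, a thrombospondin of tendon and heart matrix, was at 0.72 in male 1, 0.38 in male 2 and 0.11 in female 1, and from -0.17 to 0.01 in the others, a difference of 0.42 ± 0.10 (SE) without overlap. Comp, a cartilage and tendon matrix protein, differed by 0.31 ± 0.14. Of 20 matrix genes 10 were above 0. Postn, a matrix protein of activated fibroblasts, was at 1.10 in male 1 and 0.81 in male 2 but at -0.16 in female 1, and from -0.38 to 0.13 in the others, so that its difference was 1.08 in males and -0.06 in females. The collagen cross-linking enzyme Lox differed by 0.20 ± 0.08, by 0.37 in males and -0.02 in females.

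Of the surface and vessel lists, all 9 mesothelium genes and all 11 endothelial genes were below 0, against 52.8% of all autosomal genes, with medians of -0.13 and -0.06. The endothelial median was 0.02 in males and -0.12 in females, and the mesothelial one -0.06 and -0.23, so that without female 1 the endothelial median was above 0. Below 0 in both sexes were 6 of the 9 mesothelium and 5 of the 11 endothelial genes, against 27.5% of all autosomal genes. The mesothelial Upk1b and Krt8 differed by -0.29 ± 0.17 and -0.14 ± 0.08 (SE), and the endothelial receptors Tek and Kdr by -0.16 ± 0.05 and -0.14 ± 0.07. Of 11 fibroblast genes 8 were below 0, with Gsn at -0.24 ± 0.05 and Dpt at -0.10 ± 0.06. The fibroblast median was -0.06, and without female 1 it was above 0, at 0.002. Of 12 smooth muscle and pericyte genes 7 were below 0, with Myh11 at -0.14 ± 0.04 and Cnn1 at -0.28 ± 0.12. None of the genes of these 4 lists passed the threshold.

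Blood, gland and nerve lists were mixed. Without female 1 the medians of the macrophage and lung lists took the other sign, at 0.02 and -0.03. So did those of the thymus and lymph node list, at -0.02, and of the erythroid and marrow list, at 0.004. Of 12 macrophage genes 9 were below 0 (C1qa -0.15 ± 0.05, Cd68 -0.15 ± 0.08), and of 12 thymus and lymph node genes 6 were above 0 (Cd3g 0.17 ± 0.04, Cd4 -0.16 ± 0.06). Of 9 erythroid and marrow genes 7 were below 0 (Prtn3 -0.10 ± 0.09, Slc4a1 -0.18 ± 0.11), and of 10 Schwann cell and nerve genes 8 were below 0 (Gfra3 -0.21 ± 0.11, Dbh -0.06 ± 0.04). Among 11 lung and airway genes 7 were above 0 (Napsa 0.10 ± 0.05, Sftpd -0.07 ± 0.04), and among 8 squamous epithelium genes 5 (Krt14 0.07 ± 0.04, Epcam 0.06 ± 0.04). Of 9 liver genes 4 were above 0 (Ahsg -0.20 ± 0.15, Serpina1a -0.14 ± 0.08). Alb, the serum albumin gene, had the highest difference of that list, 0.42 ± 0.62, and was at 1.76 in female 1 and 2.69 in female 2 and from -0.18 to 0.03 in the other 6 hearts. The mean of the liver list was 0.25 in female 1 and 0.51 in female 2, hearts of different sides, and from -0.08 to 0.06 in the others. No gene of these 7 lists passed the threshold.

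**Figure D5:**
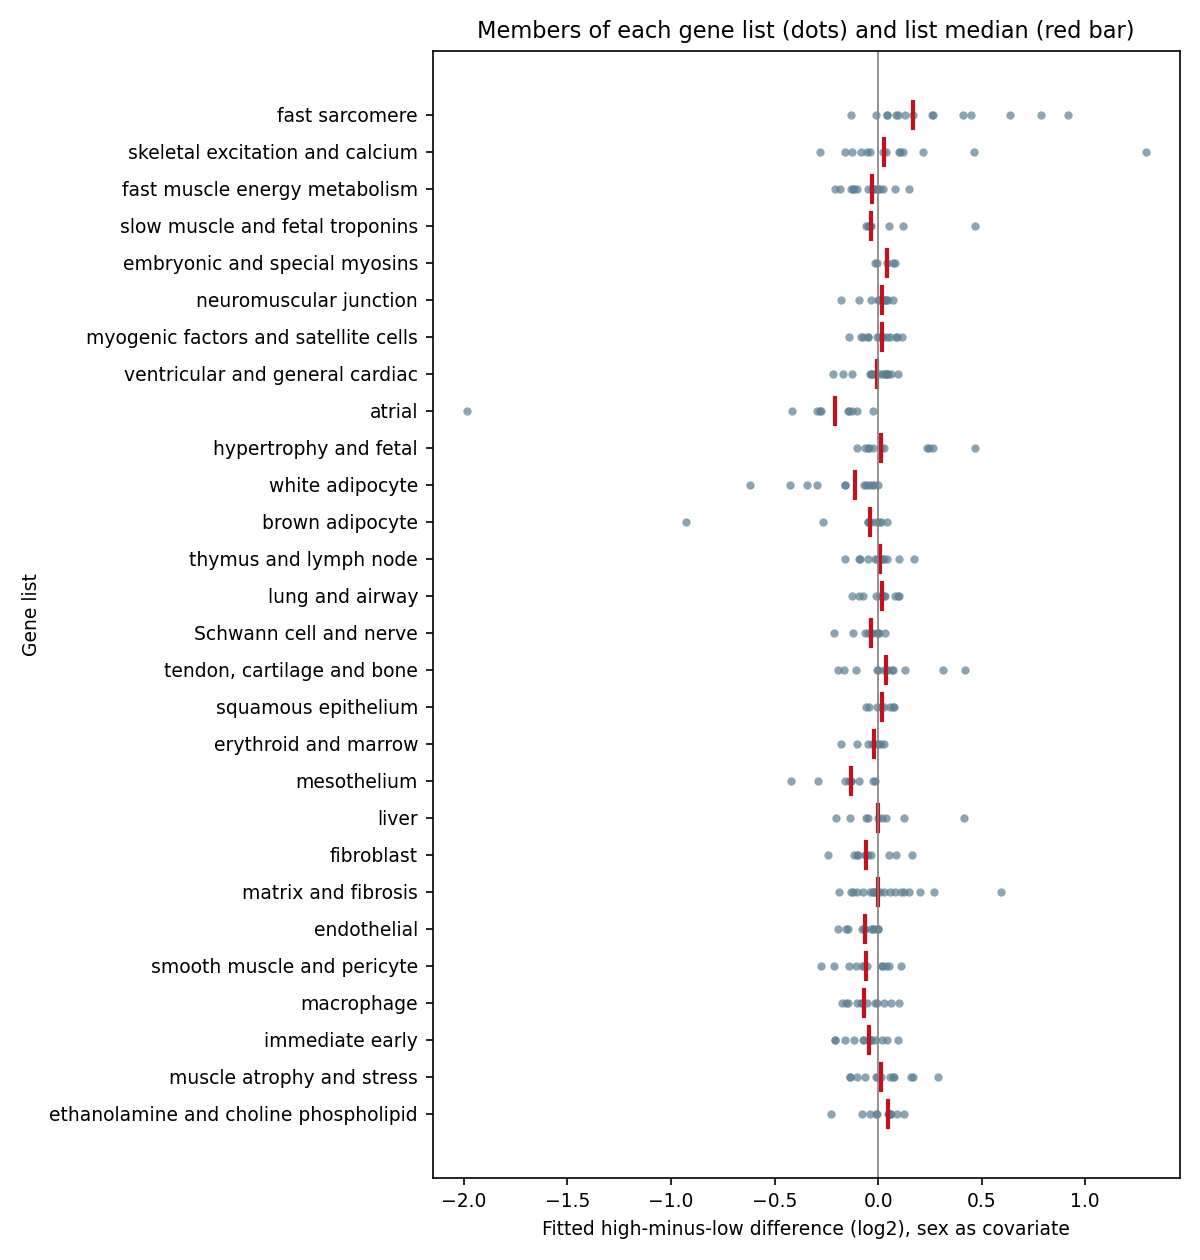
Difference between high-Myh4 and low-Myh4 hearts on the log2 scale for the measured members of each gene list (grey points), with the list's median as a red bar. The fast sarcomere list has the highest median of the 28 lists, 0.17, and the atrial list the lowest, -0.21.

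Stress and load genes were also read. Of 11 hypertrophy and fetal genes 6 were above 0. Ankrd1, a stretch-responsive nuclear and sarcomere protein, was at 0.35, 0.18 and 0.09 in male 1, male 2 and female 1, and from -0.19 to 0.01 in the others, a difference of 0.25 ± 0.05 (SE) without overlap. Xirp2, a protein of the intercalated disc, was at 0.29, 0.16 and 0.13, and from -0.13 to -0.01 in the others, a difference of 0.24 ± 0.05. The natriuretic peptide genes Nppa and Nppb differed by -0.02 ± 0.29 and -0.05 ± 0.10. Of 13 atrophy and stress genes 7 were above 0, with the ubiquitin ligase Fbxo32 at 0.29 ± 0.10 and the kinase Nmrk2 at 0.16 ± 0.06. Of 15 immediate early genes, a class of rapidly induced transcripts, 12 were below 0 (Atf3 -0.12 ± 0.06, Egr1 -0.21 ± 0.11).

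Pcyt2, the gene for which every animal is labelled heterozygous, stood at -0.13 in male 1, -0.01 in male 2 and -0.03 in female 1, and at 0.32, 0.19, 0.24, 0.01 and -0.06 in male 3, male 4 and females 2, 3 and 4. Female 4 was lower than 2 of the high-Myh4 hearts, so the sides overlapped. The difference was -0.23 ± 0.08 (SE), -0.32 in males and -0.10 in females, with an unadjusted p of 0.0261 in limma (adjusted p 0.722). Of the 12 measured genes of the pathways that make ethanolamine and choline phospholipids 7 were above 0, with a median of 0.05, which was -0.04 without female 1. Pcyt1a, which does the same step in the choline branch, differed by 0.12 ± 0.05.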

How the data were processed

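The deposited table of the 8 arrays holds 34351 probe sets on a log2 scale as made by the authors. How background was corrected and probes summarized is not given in the sources used here; nor is the log base, which was taken as 2. Each probe set has a median of 0 over the arrays (largest absolute median 5e-07), so filters on brightness could not be made. Gene symbols came from the platform annotation, with 1 symbol for 23521 probe sets, several for 1814, which were not used, and no name here for 9016. Entrez IDs of 23328 matched the RefSeq table of GRCm38.p6, which gave chromosomes. Probe sets of a gene were averaged to 22180 genes (more than 1 probe set for 1082), of which 922 lay on sex chromosomes and 54 had no chromosome here. The 21203 autosomal genes besides Myh4 were tested.

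Arrays with Myh4 above 0.9 were compared with the rest in limma 3.58.1 (R 4.3.3, lmFit and eBayes) with sex as a term, and the interaction of sex and side in a second fit, with Benjamini-Hochberg adjustment and a threshold of 0.05. The code was tested on simulated data. Promoters came from RefSeq. Of the genes looked up, Myh4, Myh1, Atp2a1 and Tnnc2 matched, and Tnnt3, Tnni2 and Actn3 did not.

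The members, the 28 gene lists and the tests were chosen with earlier results of these data known, and the lists are from general knowledge. Genes were named as follows: Myh4, Atp2a1 and Pcyt2; genes past the threshold by size, filled to 10 per direction by smallest p without predicted and small RNA genes; all members of both skeletal lists; of each other list the 2 members with the smallest p; and the 3 genes with the smallest interaction p. Others (Gm11565, Tnnt1, Tnni1, Myl7, Nppa, Nppb, Lsp1, Prr33, Myh3, Myh8, the cardiac counterparts, Pygm, Ckm, Eno3, Hamp, Retnla, Alb, Plaat1, Iglv1, Snord104, Psca and, in the closing section, Anln, Rrm2, Cdk1, Mki67, Scd1, Scd4, Fasn, Ighm, Xbp1 and Jchain) were named after their values were seen, as context, and Xist and Uty to read the scale. Alternatives were quantile normalization, median centring, single probe sets, no sex term, Myh4 as a number, robust and trended eBayes, array weights, a block for replicate number, each array left out, each sex alone, sex-chromosome genes kept, protein-coding genes only, the atrial or white adipocyte mean as a term, and an adjusted p of 0.1.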

Additional observations from a re-analysis of the deposited data

Results flagged for a closer look

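Within each sex, 132 genes and list means were checked for 1 heart far from the other 3, which makes 264 groups of 4, and 20 were marked; chance alone marks about 1 group in 20. That rate does not hold here for female 1: it is the only female among the high-Myh4 hearts, and many of the genes checked were named for a small p of the difference between the sides or of its interaction with sex. Female 1 was the heart apart in 11 groups, which are given as values only. It was apart for Cd3g at 0.24 (other females 0.03 to 0.06), Ifit1 at 0.26 (0.05 to 0.06), Zmpste24 at 0.16 (-0.10 to -0.09), Nmrk2 at 0.07 (-0.22 to -0.18) and Ryr1 at 0.02 (all at -0.03). It was also apart for Cidea at -0.29 (0.01 to 0.06), Gprc5c at -0.29 (-0.01 to 0.03), Nt5e at -0.10 (0.15 to 0.20) and Myh11 at -0.10 (-0.02 to -0.01), and for the means of the fibroblast list at -0.13 (0.03 to 0.05) and the endothelial list at -0.14 (-0.01 to 0.02).

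Female 2 was apart for Atf3 at 0.19 (-0.04 to -0.01), Kdr at 0.09 (-0.19 to -0.15) and the mean of the myogenic list at -0.04 (other females at 0). Female 4 was apart for Mylpf at -0.31 (-0.01 to 0.01) and Nkx2-5 at 0.24 (-0.07 to -0.02). Among males, male 1 was apart for Cacnb1 at 0.22 (0 to 0.01), male 4 for Jph1 at 0.23 (-0.01 to 0.03), and male 3 for Serpina1a at 0.18 (-0.11 to -0.06) and the mean of the macrophage list at -0.05 (0 to 0.01).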

How the results depend on the processing

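No gene passed the adjusted threshold under any alternative except Myh4 as a number, where 4 did; this includes an adjusted p of 0.1 and each left-out array (0 to 0 genes). The count at an unadjusted p under 0.05 (limma) lay between 1187 and 1447 with 1 array left out, and the 12 fast markers higher at that p numbered 7 to 9 with 1 array left out, 9 in males alone and 4 in females alone. The interaction gave 0 genes in every fit run; without female 1 it could not be fitted, and the main comparison then rests on males alone for the high side. Quantile normalization and median centring moved the median of all genes by 0.00447 and 0.00181 and reversed no named gene. Whether the replicate numbers pair the hearts was not settled. Correlations of deviations from the sex means were 0.135, 0.099, -0.00211 and 0.0914 for numbers 1 to 4. Male 1 and female 1 were each other's best match across the sexes, and so were male 2 and female 2. Male 4 was the best match of female 4 but not the reverse, and male 3 and female 3 did not match each other. Only replicate number 2 had its hearts on different sides, male 2 high and female 2 low. With a block for replicate number, the side was therefore read from that pair alone, against the sex gap of the other numbers. The counts and signs of that fit thus cannot test the difference over all the hearts. The replicate block gave 0 genes past the threshold and 905 at an unadjusted p under 0.05 (limma). In that block 7 of the 12 fast markers were higher at that p. Reversed in it were Acta1 -0.00801, Ahsg 0.147, Bmp10 0.0536, Cacnb1 -0.0158, Casq1 -0.0158, Myh14 -0.237, Napsa -0.0360, Prss12 0.000742, Sftpd 0.0620, Slc4a1 0.0887, Smtnl1 0.103, Stac3 0.192 and Upk1b 0.211. Other reversed values were, with Myh4 as a number, Cacng1 -0.00991, Prss12 0.0469, Sln 0.178 and Tpm2 0.0199. With the atrial mean as a term they were Cacng1 -0.0126, Prss12 0.0507, Sln 0.267, Smtnl1 0.0135 and Tpm2 0.0429, and with the white adipocyte mean Cacna1s 0.0184, Prss12 0.0855, Sln 0.0668, Smtnl1 0.0436 and Tpm2 0.0107. In females alone they were Cacnb1 -0.0697, Efnb3 0.326, Egr1 0.0475, Krt14 -0.00794, Lox -0.0179, Myh2 -0.138, Myh7b -0.0324, Myl1 -0.0924, Nt5e -0.271 and Postn -0.0556. In males alone, which equals leaving out female 1 for these values, they were Ahsg 0.00994, Cacng1 -0.0625, Myoz3 -0.0188, Prss12 0.232, Slc4a1 0.0222, Sln 0.560, Smtnl1 0.00820 and Tpm2 0.114. With 1 array left out the genes that reversed ranged from -0.349 to 0.00994 (Ahsg), -0.0309 to 0.118 (Cacnb1), -0.0625 to 0.0937 (Cacng1), -0.0770 to 0.00502 (Mrln), -0.0916 to 0.181 (Myh2), -0.0157 to 0.146 (Myl1), -0.0188 to 0.150 (Myoz3), -0.120 to 0.232 (Prss12), -0.236 to 0.0222 (Slc4a1), -0.722 to 0.560 (Sln), -0.0310 to 0.0145 (Smtnl1) and -0.254 to 0.114 (Tpm2). None of these is among the 4 genes that passed with Myh4 as a number, and the cause was not tested.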

Other observations

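Genes of dividing cells and of fatty acid synthesis were also read, with lists drawn up after the values were seen, so their counts are a description with no test. Of 34 measured genes of cell division, 31 had a difference above 0 in the high-Myh4 hearts (47.2% of all autosomal genes), with a median of 0.08. Higher at an unadjusted p under 0.05 (limma, background 2.83%) were 15, and 11 were higher without overlap (background 1.86%). The list was prompted by Top2a, Mybl1, Traip, Anln, Rrm2 and Cdk1. Without these 6, 25 of 28 were above 0, 9 at that p and 5 without overlap, with a median of 0.06. The 28 were also picked after the values were seen. The mean of the 34 genes was 0.06 in male 1, 0.06 in male 2 and 0.07 in female 1, and -0.10, -0.06, -0.001, 0.02 and -0.07 in male 3, male 4 and females 2, 3 and 4. Cdk1, the kinase that drives entry into mitosis, was at 0.24, 0.22 and 0.17 in male 1, male 2 and female 1, and from -0.38 to 0.05 in the others. Its sides did not overlap. Mki67, a marker of cycling cells, was at 0.16, -0.01 and 0.02 in the same hearts, and from -0.35 to 0.06 in the others, with overlap.

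Of 14 measured genes of fatty acid synthesis, 11 were below 0 (52.8% of all autosomal genes), with a median of -0.10. At an unadjusted p under 0.05 (limma, background 3.89%) 4 were lower, Scd1, Scd4 and Fasn among them, and 0 were lower without overlap. Scd1 (-0.90), Scd4 (-0.56) and Fasn (-0.47) also had some of the lowest differences of all autosomal genes. The list was drawn up with those values known, and no count without these genes was made. Scd1, a fatty acid desaturase, was at 1.26, 1.38 and 2.11 in females 2, 3 and 4, and between -0.57 and 0.04 in the other 5 hearts, which include male 3 and male 4 of the low-Myh4 side. Fasn, the fatty acid synthase, showed the same hearts high, at 0.63, 0.71 and 1.26. Of 11 plasma cell and immunoglobulin genes 4 were above 0 and 7 below, with a median of -0.01. The largest differences were those of Iglv1, Jchain and Ighm, at 0.53 ± 0.18, 0.47 ± 0.22 and 0.28 ± 0.14 (SE), and the lowest was Xbp1 at -0.16 ± 0.10. Jchain, which joins secreted immunoglobulins, was at 0.78 in male 2, 0.41 in female 1 and -0.15 in male 1, and from -0.27 to 0.33 in the others. Iglv1 was at 0.72, 0.59 and -0.10 in male 2, female 1 and male 1. The sides overlapped for both.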
